A study of Mus musculus with 95 samples.

Results

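Genes that copy the DNA and divide the cell were followed in the kidneys of SNF1 mice over the course of pristane-accelerated lupus nephritis. The set holds 45 standard genes of the S, G2 and M phases of the cell cycle, taken by symbol. A probe set was taken for a gene if the array annotation gave it that symbol and no other, and among several such probe sets the brightest on average over the 95 arrays was used. Of the 45 genes, 44 had such a probe set, out of 17097 genes represented in the same way. Cyclin B1, Ccnb1, had no probe set in the annotation used here, and no value is given for it.

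SNF1 mice, the offspring of an SWR by NZB cross, develop lupus nephritis spontaneously with age. Female SNF1 mice were injected intraperitoneally with pristane, a hydrocarbon oil, and untreated females of the same age served as controls, with no other allele or agent named for either arm. Kidney RNA was hybridised to Affymetrix HT MG-430 PM arrays, 1 kidney to an array, at weeks counted from the injection. At week 0, 7 untreated kidneys were taken. At the later times there were 10 untreated and 9 pristane-treated kidneys at week 2, 9 and 10 at week 4, 10 and 8 at week 8, 10 and 8 at week 12, and 5 and 9 at week 14. The untreated mice of weeks 12 and 14 are thus older than those of week 0 and carry the same disease-prone genotype. The methods describe repeated time courses, and since the labels do not tie a mouse to one of them, they could not be told apart. The p-values below measure the spread between mice.

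A dividing cell first licenses its replication origins by loading the ring-shaped Mcm2 to Mcm7 helicase, then copies its DNA in S phase, and then condenses, aligns and separates the chromosomes in M phase. E2F factors switch on most S phase genes, while the G2 and M phase genes are held down in resting cells by the DREAM complex and switched on later with the help of B-Myb and Foxm1. Most cells of the adult kidney are at rest, so that transcripts of these genes are scarce there, and they are used in pathology as a sign of dividing tubule, glomerular or infiltrating cells.

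Of the 45 genes, 9 act at the replication fork or load it (Cdc6, Cdc45, Mcm2, Mcm3, Mcm4, Mcm5, Mcm6, Mcm7 and Pcna) and 4 supply nucleotides (Rrm1, Rrm2, Tyms and Tk1). Cyclins and their kinase were represented by 6 genes (Ccne1, Ccne2, Ccna2, Ccnb1, Ccnb2 and Cdk1), and mitotic kinases with the transcription factor Foxm1 by another 6 (Plk1, Aurka, Aurkb, Nek2, Melk and Foxm1). The spindle checkpoint and its target Cdc20 gave 4 genes (Bub1, Bub1b, Mad2l1 and Cdc20). Motor proteins, spindle and cytokinesis factors gave 8 (Kif11, Kif20a, Kif22, Kif4, Nusap1, Prc1, Tpx2 and Ect2), and centromere proteins with the chromosomal passenger complex 5 (Cenpa, Cenpe, Cenpf, Birc5 and Cdca8). The last 3 were Mki67, which coats mitotic chromosomes and is the antigen of the Ki-67 stain, Top2a, the topoisomerase that untangles sister chromatids, and Cdca3, a trigger of mitotic entry.

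Promoters of 6 of the genes that the results below turn on are shown, 5 with matches to the letters searched and Birc5 with none. Pcna matched the CCAAT box only. The stretches are the 150 bases before the RefSeq transcription start, from mouse build GRCm38.p6, written 5′ to 3′ on the strand of the gene. Capitals mark matches on either strand to the cell cycle homology element (TTTGAA or TTCGAA), to E2F letters (TTTGGCGC, TTTGCCGC, TTTCGCGC or TTTCCCGC) or to the CCAAT box (CCAAT).
Mki67 (chr7:135716380-135716529, minus strand): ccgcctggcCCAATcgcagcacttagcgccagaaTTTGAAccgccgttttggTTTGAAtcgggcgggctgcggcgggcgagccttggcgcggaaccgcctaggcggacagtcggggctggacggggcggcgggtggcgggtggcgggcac
Top2a (chr11:99024190-99024339, minus strand): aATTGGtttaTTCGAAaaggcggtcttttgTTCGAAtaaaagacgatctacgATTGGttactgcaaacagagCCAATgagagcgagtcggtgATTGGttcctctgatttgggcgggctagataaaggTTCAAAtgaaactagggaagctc
Cdk1 (chr10:69352913-69353062, minus strand): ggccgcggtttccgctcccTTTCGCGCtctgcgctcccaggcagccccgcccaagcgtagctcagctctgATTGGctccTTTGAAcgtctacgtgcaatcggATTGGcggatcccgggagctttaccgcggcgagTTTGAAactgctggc
Mcm6 (chr1:128359706-128359855, minus strand): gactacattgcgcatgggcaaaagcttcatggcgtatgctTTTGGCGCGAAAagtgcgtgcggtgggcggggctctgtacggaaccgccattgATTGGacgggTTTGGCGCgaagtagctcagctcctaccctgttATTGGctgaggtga
Pcna (chr2:132253181-132253330, minus strand): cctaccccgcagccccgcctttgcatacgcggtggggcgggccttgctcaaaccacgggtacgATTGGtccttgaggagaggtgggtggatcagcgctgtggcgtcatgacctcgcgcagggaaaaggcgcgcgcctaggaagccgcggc
Birc5 (chr11:117849087-117849236, plus strand): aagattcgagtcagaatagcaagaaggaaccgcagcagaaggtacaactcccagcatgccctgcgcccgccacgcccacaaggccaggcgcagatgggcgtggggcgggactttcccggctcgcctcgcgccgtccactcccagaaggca
The 250 bases before the start were searched for the 38 of 45 members that the table of promoters held, and for all 27025 genes in it. A CCAAT box was found in 30 of 38 members (78.9%) and in 37.5% of all genes, and a cell cycle homology element in 13 members (34.2%) and in 19.6% of all genes. All 13 of these members also had a CCAAT box, a pair found in 7.93% of all genes. E2F letters were found in 5 members (13.2%) and in 2.16% of all genes, and 4 of these 5 were replication genes. Cdk1 and Mcm7 carried all 3 kinds of element, and in Top2a 6 CCAAT boxes and 4 cell cycle homology elements were found within the searched stretch. None of these letters were found in the window of Birc5, which says no more than that. A match is a string of letters and not a shown binding site.

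Array medians lay between 4.22 and 4.57, and the lowest value of the table, 2.21, made up 18.6% of its entries and is called the floor here. Cdc6, Mcm5, Aurka, Aurkb and Cenpf lay within 0.01 of their own lowest value on 80, 75, 84, 84 and 76 of the 95 arrays, so that levels below it were not resolved in these genes. Plk1 and Ccne2 were also near the floor, with mean levels of 2.32 and 2.26 over the 95 arrays. The tissue label was borne out by its markers, with a mean level over 10 proximal tubule markers of 9.94 to 11.9 in every kidney of weeks 12 and 14. Some kidneys held adrenal gland transcripts, with a mean level over 10 adrenal markers from 3.47 to 8.28, and these were most abundant in the pristane-treated mice of week 2, with a median of 7.43 against 3.93 in untreated mice of that week. The kidney of replicate 10 of the untreated mice at week 12 stood apart from its group, with a mean level over 12 macrophage and monocyte markers of 7.80 where the other 9 kidneys lay between 4.42 and 5.88. The week 12 counts and the week 12 values that move most are given with and without it.

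The mean over the 44 genes of each kidney's log2 difference from the untreated mice gives the course in short. Its median stayed between -0.10 and 0.00 in every group of weeks 0 to 8, treated or not. At week 12 the untreated mice had a median of -0.01 and the pristane-treated mice of 0.40, with a lowest of 0.07 and a highest of 0.90. At week 14 the untreated kidneys lay at 0.38, -0.05, -0.07, -0.0046 and -0.03, and the pristane-treated kidneys had a lowest of 0.18, a median of 0.91 and a highest of 1.06. Within the pristane-treated mice of week 14, replicates 1 and 2 lay at 0.21 and 0.18, and the other 7 lay at or above 0.83. The highest untreated kidney at week 14, replicate 1, thus lay above these 2 treated kidneys, and replicate 10 of the untreated mice at week 12, at 1.05, lay above all 8 treated kidneys of its week.

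**Figure D1:**
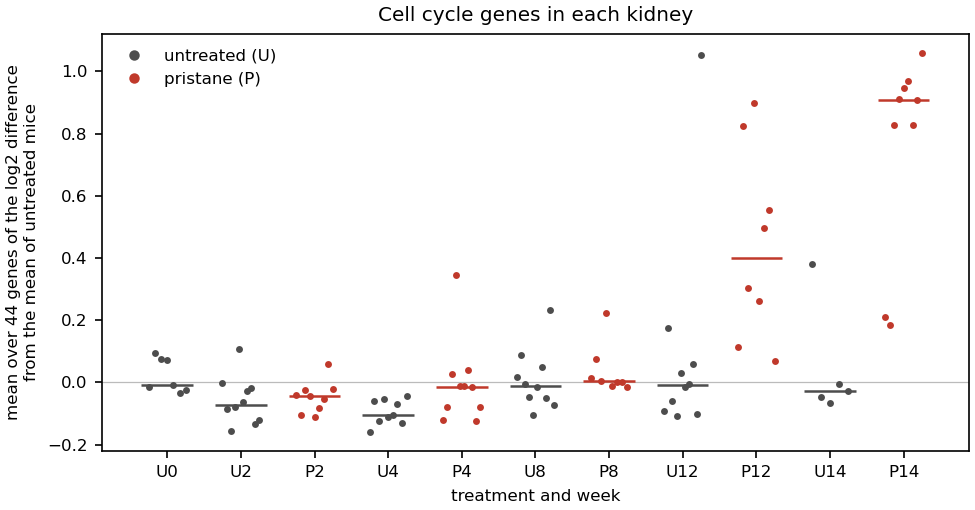
Mean over 44 cell cycle genes of the log2 difference from the mean of all untreated mice (y axis) in each of 95 kidneys, by treatment and week (x axis; U untreated, P pristane). Points are kidneys and lines are group medians. The medians of the treated groups of weeks 12 and 14, 0.40 and 0.91, lie above those of all other groups, and replicate 10 of the untreated mice at week 12 lies at 1.05.

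The group with the highest mean was the pristane-treated group of week 14 for 32 of the 44 genes (72.7%), beside 21.5% of all genes. Untreated mice of week 0, the youngest, gave the highest mean for 8 genes (18.2%, beside 24.8% of all genes), namely Ccne1, Plk1, Aurka, Nek2, Foxm1, Kif11, Kif4 and Nusap1. Ccne2 and Ect2 were highest in pristane-treated mice of week 12, Mcm3 in untreated mice of week 12 and Tyms in untreated mice of week 4. The place of Mcm3 rests on untreated replicate 10 of week 12. With this kidney the means were 3.61 in untreated mice of week 12 and 3.60 in pristane-treated mice of week 14, and without it the former was 3.52, so that 33 of the 44 genes (75.0%, beside 21.7% of all genes) were highest in pristane-treated mice of week 14. Among the mitotic kinases and Foxm1, 4 of 6 thus had their highest mean at week 0. Single kidneys weigh on 3 of these. Aurka lay at its lowest value in 6 of the 7 kidneys of week 0 and at 3.29 in replicate 3. Plk1 was 3.06 in the same replicate, against a mean of 2.35 in the others. Nek2 was 4.68 in replicate 5, against a mean of 3.54 in the others. The places of these genes without these kidneys were not determined.

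**Figure D2:**
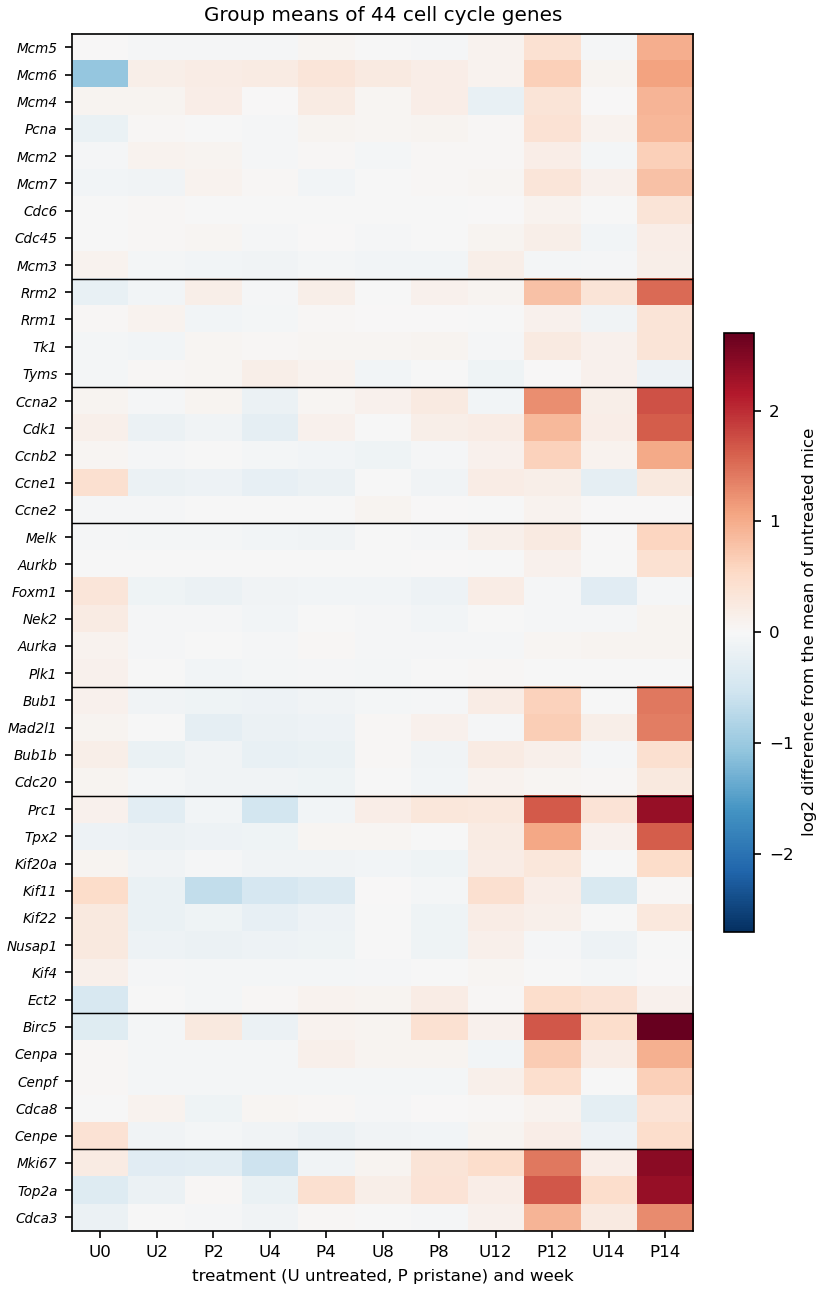
Group means of 44 cell cycle genes as log2 differences from the mean of all untreated mice (colour, red higher and blue lower), with genes in rows, grouped by role between black lines, and the 11 groups in columns (U untreated, P pristane, and the week). Of the 44 genes, 32 have their highest mean in the last column, the pristane-treated mice of week 14.

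At week 14, 15 of the 44 cell cycle genes were higher in pristane-treated than in untreated kidneys and none was lower, by limma at an adjusted p under 0.05. Over all genes, 6.97% were higher and 4.8% were lower. The difference was positive for 40 of the 44 genes, with a median of 0.60 on the log2 scale against 0 over all genes, and 13 genes differed by over 1, which is 2-fold. At an unadjusted p under 0.05, 29 members were higher and 0 lower, beside 2414 higher and 2828 lower of all 17097 genes. In RNA from whole kidney, more cells of a dividing type and more of this RNA per cell cannot be told apart. In none of the 44 genes did the groups separate fully, and in 8 genes 8 of the 9 treated kidneys lay above all 5 untreated kidneys. How many of all genes did so was not counted. The count of 15 moved with single mice. It was 4, 3, 4 and 5 without untreated replicates 2, 3, 4 and 5, it was 8, 9, 8 and 9 without pristane-treated replicates 3, 4, 6 and 9, and it was 24 and 27 without pristane-treated replicates 1 and 2, the 27 including 1 lower gene.

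The 4 largest differences were those of Mki67, Birc5, Prc1 and Top2a, markers and machinery of mitosis. The level of Mki67 was 6.53, 4.26, 4.55, 4.88 and 4.26 in the 5 untreated kidneys and had a lowest of 5.85, a median of 7.46 and a highest of 8.13 in the 9 treated ones. All treated kidneys thus lay above 4 of the 5 untreated kidneys, and 7 lay above all of them. The difference was 2.25 ± 0.47 on the log2 scale (SE), or 4.76-fold (limma adjusted p = 0.0193). The level of Top2a was 5.54, 3.92, 3.78, 3.98 and 3.57 in untreated kidneys, and in treated kidneys it ran from 4.61 over a median of 6.46 to 6.83. Replicate 1 of the untreated mice was the highest of its group for both genes. The difference for Top2a was 1.90 ± 0.43, or 3.72-fold (limma adjusted p = 0.025). Cdca3, the third gene of this group, differed by 1.03 ± 0.34 and did not pass (adjusted p = 0.0809).

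All 5 centromere and passenger genes had a difference above 0.6, with a median of 0.67, and 2 of them passed. Birc5 encodes survivin, the subunit that brings Aurora B kinase to the centromere. Its level was 7.41, 5.43, 5.55, 5.99 and 4.49 in untreated kidneys, and it ran from 6.69 over a median of 8.15 to 8.97 in treated kidneys. The treated kidneys lay above the untreated ones except for the overlap with replicate 1. Its difference was 2.23 ± 0.49, or 4.70-fold (limma adjusted p = 0.0232). Cdca8, borealin of the same complex, rose by 0.65 ± 0.15 (adjusted p = 0.028), while Aurkb itself, their kinase, differed by 0.41 ± 0.18 (adjusted p = 0.182) from untreated kidneys that all lay at the floor. The centromere histone Cenpa and the kinetochore proteins Cenpe and Cenpf differed by 0.75, 0.62 and 0.67 without passing.

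Of the 8 spindle and cytokinesis genes 2 rose, and their median difference was 0.37. Prc1, which bundles the microtubules of the central spindle, rose by 1.97 ± 0.47 (3.92-fold, limma adjusted p = 0.0289), and 6 of 9 treated kidneys lay above all untreated ones. Tpx2, which activates Aurora A on the spindle, rose by 1.52 ± 0.38 (2.86-fold, adjusted p = 0.0329) from a level of at most 2.44 in 4 of 5 untreated kidneys. Other parts of the same machinery gave small values, with 0.07 for the chromokinesin Kif4, 0.11 for Nusap1 and 0.44 for the spindle motor Kif11. Ect2, which opens cytokinesis through RhoA, had the lowest difference of all members at -0.26 ± 0.13 (adjusted p = 0.238).

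Among cyclins and Cdk1, 2 of the 5 measured genes rose and the median was 0.92. The level of Cdk1, the kinase that drives entry into mitosis, was 5.41, 4.72, 4.72, 4.75 and 4.66 in untreated kidneys. In treated kidneys it ran from 5.39 over a median of 6.33 to 6.94. A single treated kidney, replicate 1, lay below the highest untreated kidney. The difference was 1.44 ± 0.27, or 2.72-fold (limma adjusted p = 0.012). Its S and G2 phase partner Ccna2 rose by 1.56 ± 0.44 (adjusted p = 0.0481). Ccnb2, a partner in mitosis, differed by 0.92 (adjusted p = 0.072), and the G1 to S cyclins Ccne1 and Ccne2 by 0.52 and -0.01. Ccne2 lay near the floor, with a mean level of 2.26 over all arrays.

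The spindle checkpoint gave 1 rise among 4 genes, with a median of 0.84. Mad2l1, which holds back anaphase until all chromosomes are attached, rose by 1.21 ± 0.24 (2.32-fold, limma adjusted p = 0.0141). Bub1 had a larger difference of 1.44 ± 0.42 and did not pass (adjusted p = 0.0541). Its level was 2.40 in 4 of 5 untreated kidneys, in 2 of 9 treated kidneys it was the same, and in the other 7 it lay between 3.85 and 5.04. Bub1b and Cdc20 differed by 0.47 and 0.22. None of the 6 mitotic kinases and Foxm1 passed, and their median was 0.20, the lowest of the 8 roles. Plk1, which drives centrosome maturation, and Aurka, its activator, differed by less than 0.01, with intervals from -0.13 to 0.12 and from -0.24 to 0.24.

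In the replication group 5 of 9 genes rose, with a median of 0.70, and all 9 differences were positive. The rises were those of the helicase subunits Mcm5 (1.02 ± 0.28, adjusted p = 0.043), Mcm6 (1.01 ± 0.21, adjusted p = 0.0179), Mcm4 (0.90 ± 0.17, adjusted p = 0.0135) and Mcm7 (0.66 ± 0.14, adjusted p = 0.0198) and of the sliding clamp Pcna, all by limma. Mcm5 lay at its lowest value of 2.24 in all 5 untreated kidneys and in 1 treated kidney, and between 2.53 and 3.89 in the other 8. The level of Pcna was 9.91, 9.51, 9.48, 9.64 and 9.34 in untreated kidneys and ran from 9.72 over a median of 10.43 to 10.89 in treated ones. Of the 9 treated kidneys, 7 lay above all untreated ones. Pcna differed by 0.79 ± 0.19, or 1.73-fold (adjusted p = 0.0288). The other helicase subunits Mcm2 and Mcm3 differed by 0.70 and 0.19, and the loader Cdc6 and the helicase activator Cdc45 by 0.36 and 0.24, none of which passed.

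Nucleotide supply gave 1 rise among 4 genes. Rrm2, the S phase subunit of ribonucleotide reductase, rose by 1.18 ± 0.28 (2.27-fold, limma adjusted p = 0.0282), while its partner subunit Rrm1 differed by 0.44 (adjusted p = 0.0899). Thymidine kinase Tk1 differed by 0.22, and thymidylate synthase Tyms by -0.26 ± 0.12 (adjusted p = 0.232). Tyms and Ect2 were thus the members with the lowest differences at week 14.

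**Figure D3:**
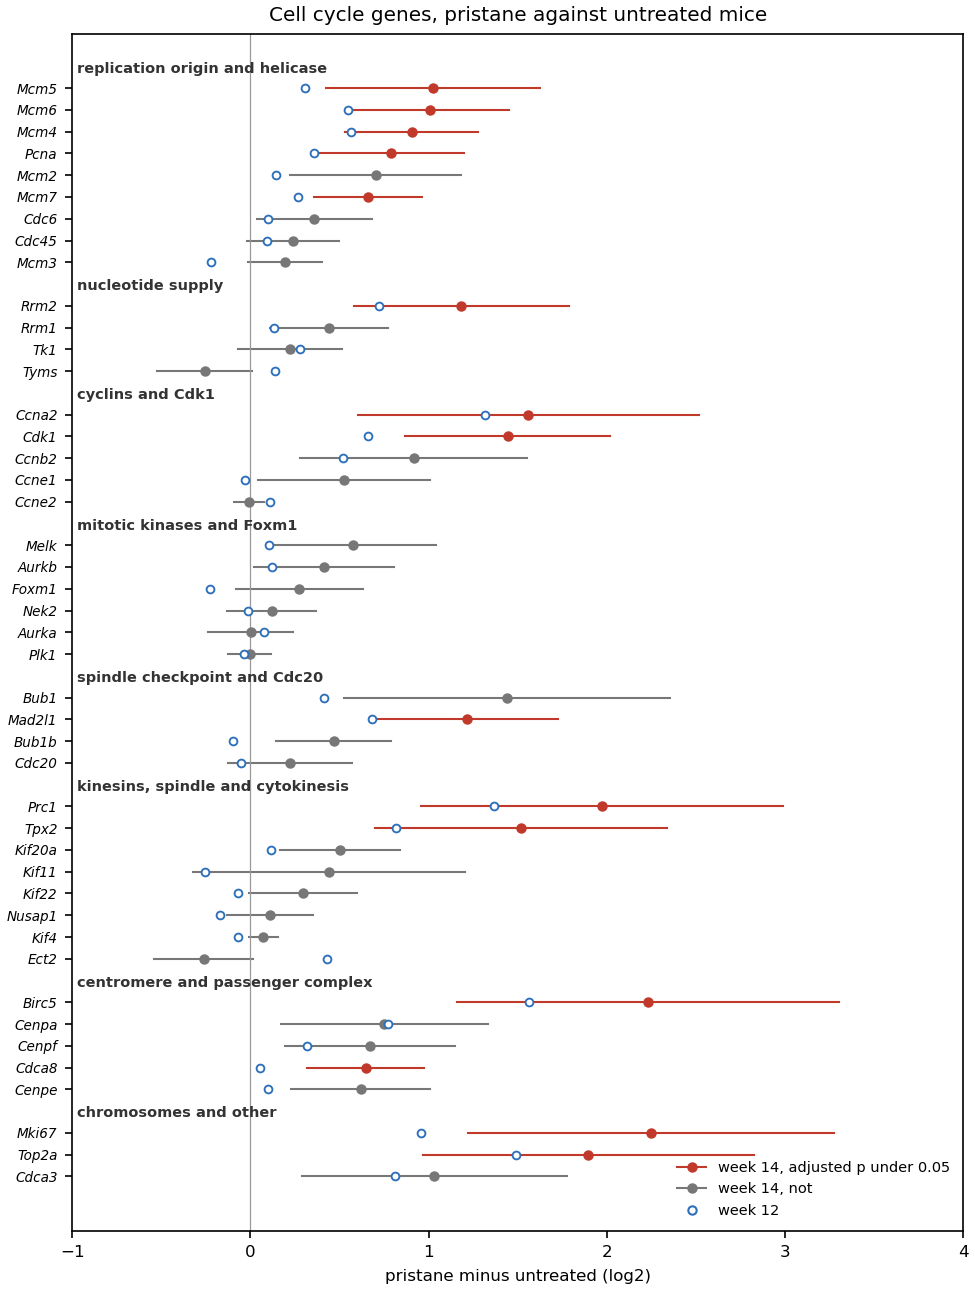
Pristane minus untreated difference on the log2 scale (x axis) for 44 cell cycle genes (y axis), grouped by role. Filled points with lines give week 14 with the 95% interval of limma (9 treated and 5 untreated kidneys), in red for the 15 genes with an adjusted p under 0.05, and open points give week 12. Mki67, Birc5, Prc1 and Top2a lie farthest to the right, and Ect2 and Tyms lie left of 0 at week 14.

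Of the 44 genes, 23 had further probe sets on the array. Of their 33 other probe sets, 5 were also higher at week 14, which are the second probe sets of Ccna2 (1.24) and Prc1 (2.21) and those of Kif22 (0.44), Mcm2 (0.87) and Mcm3 (0.77), whose main probe sets did not pass. The mean over all probe sets of each gene gave 23 called members in place of 15. Some pairs disagreed in size, and Nusap1 differed by 0.11 on the probe set with the higher mean and by 1.19 on the other (adjusted p = 0.652 and 0.173). Called members had 9 other probe sets, of which 2 were called. Of all 33 other probe sets, 9 lay within 0.01 of 0 and 1 lay below -0.01. The count of members is therefore tied to the choice of probe set.

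Other genes of the same pathways were counted in the same comparison, in which 6.97% of all genes were higher and 4.8% lower. Of 37 other S phase genes measured, 15 rose and 0 fell, with a median of 0.46. Uhrf1, which maintains DNA methylation behind the fork, rose by 1.99, the ligase Lig1 by 1.34 and the helicase cofactor Gins1 by 1.19. Of 47 other G2 and M phase genes, 9 rose and 0 fell, with a median of 0.33, led by Cep55, which acts in abscission (2.47), the condensin subunit Ncapg (1.90) and the spindle pole protein Aspm (1.73). Of 28 G1 cyclins, Cdks, E2F and Rb family genes, 4 rose and 3 fell. Myc (1.62), Cdk6 (1.40) and cyclin D2, Ccnd2 (0.92), were higher, and so was the pocket protein Rbl1 (0.84). Cyclin D3, Ccnd3 (-0.76), the E2F partner Tfdp2 (-0.60) and the pocket protein of resting cells Rbl2 (-0.59) were lower, and these and Rbl1 were picked out after their values were seen. Of 24 inhibitors and p53 targets 1 rose, Cdkn1a, which encodes p21 (1.46, adjusted p = 0.0329), a share below that of all genes.

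At week 14 markers of infiltrating cells were also higher in treated kidneys. Of the macrophage and monocyte markers, 10 of 12 were higher, and their mean level ran from 4.86 to 5.25 in untreated and from 6.18 to 7.91 in treated kidneys. Of 9 T cell markers 5 were higher, with a mean level of 3.79 to 4.02 in untreated and of 4.20 to 5.86 in treated kidneys, and of 9 B cell and plasma cell markers 3 were higher, with 4.27 to 4.69 and 4.73 to 6.52. Of 8 neutrophil markers 2 were higher, with a mean level of 2.68 to 2.999 in untreated and of 3.06 to 4.75 in treated kidneys. All treated kidneys thus lay above all 5 untreated kidneys in this level, with a narrow gap between the nearest. Itgam of the macrophage list, Cd5 and Cd28 of the T cell list and Ms4a1 and Blk of the B cell list lay at the floor on 73 or more of the 95 arrays. So did Mpo and Elane of the neutrophil list, on 84 and 91 arrays. Of 10 proximal tubule markers 3 were lower, with a mean level of 11.7 to 11.9 in untreated and of 9.94 to 11.8 in treated kidneys. The treated replicates 1 and 2, which had the lowest mean over the cell cycle genes, also had the lowest macrophage levels of their group, 6.29 and 6.18, and tubule levels of 11.8, within the untreated range. Untreated replicate 1, with 0.38 over the cell cycle genes, had a macrophage level of 5.25, the highest of its group. The part of these cells in the result was not tested. Adrenal markers ran from 3.52 to 3.77 in untreated and from 3.47 to 6.22 in treated kidneys, and with the 3 treated kidneys above 5 left out 0 members were called, 23 had an unadjusted p under 0.05 and the median difference was 0.50.

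**Figure D4:**
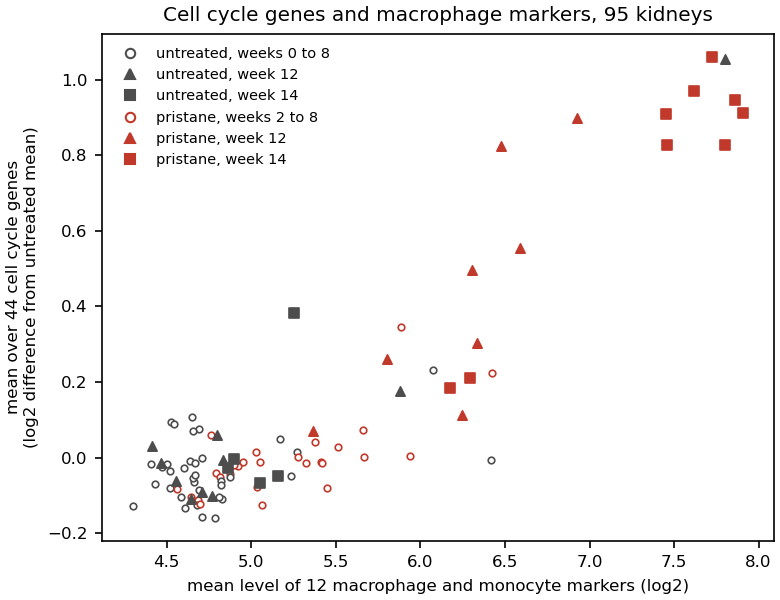
Mean over 44 cell cycle genes as log2 difference from the mean of untreated mice (y axis) against the mean log2 level of 12 macrophage and monocyte markers (x axis) in 95 kidneys. Open circles are weeks 0 to 8, triangles week 12 and squares week 14, in red for pristane-treated mice. Of the pristane-treated kidneys of week 14, 7 lie at or above 0.83 and 2 at 0.21 and 0.18, and untreated replicate 10 of week 12 lies at a marker level of 7.80.

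At week 12 no cell cycle gene passed (limma, 0 higher and 0 lower at an adjusted p under 0.05), where 0.0526% of all genes were higher and 0% lower. At an unadjusted p under 0.05, 12 members were higher and 0 lower, beside 1104 higher and 274 lower of all 17097 genes. Of the members' differences, 33 were positive. The median difference was 0.14 against 0.00 over all genes. The 4 highest values were those of Birc5 (1.56 ± 0.52), Top2a (1.49 ± 0.57), Prc1 (1.37 ± 0.47) and Ccna2 (1.32 ± 0.42), with adjusted p from 0.596 to 0.716. Mki67, Cdk1 and Pcna differed by 0.96 ± 0.39, 0.66 ± 0.24 and 0.36 ± 0.20. Top2a ran from 2.69 over a median of 3.47 to 7.21 in 10 untreated kidneys and from 3.94 over 5.15 to 6.80 in 8 treated kidneys. The highest untreated value for Top2a is that of replicate 10, which lay above all treated kidneys.

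Replicate 10 of the untreated mice at week 12 was the highest of its group in 33 of the 44 genes (75.0%), beside 29.4% of all genes. Its levels of Mki67, Top2a and Birc5 were 7.50, 7.21 and 7.95, against means of 4.93, 3.50 and 5.15 in the other 9 kidneys. Its T cell marker level of 5.48 was also the highest of its group. Without this kidney 3 members passed at week 12, where 2.25% of all genes were higher, and 24 were higher and 0 lower at an unadjusted p under 0.05. Of the 44 differences 36 were then positive, with a median of 0.23. These were Top2a (1.86 ± 0.41, limma adjusted p = 0.0345), Ccna2 (1.56 ± 0.33, adjusted p = 0.0275) and Rrm1 (0.23 ± 0.04, adjusted p = 0.00702). Mki67 then differed by 1.21 ± 0.29 (adjusted p = 0.0511) and Birc5 by 1.84 ± 0.44 (adjusted p = 0.0551). A single fit over all 11 groups, which keeps this kidney but shares the spread of all groups, called 10 members. Of the 12 macrophage and monocyte markers 0 were called at week 12 with all kidneys, 7 were higher at an unadjusted p under 0.05 (limma), and their median difference was 1.33. Without this kidney their median difference was 1.68, and their mean level ran from 4.42 to 5.88 in the other 9 untreated kidneys and from 5.37 to 6.92 in the treated ones.

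The effect at week 14 was then set against that at week 12, with the same kidneys as in both comparisons above. For 38 of the 44 genes the later effect was the larger, with a median difference of effects of 0.39, and none passed (limma, 0 higher and 0 lower, as for 0% and 0% of all genes). At an unadjusted p under 0.05, 940 of all 17097 genes had a larger and 2452 a smaller effect at week 14. Of the members, 10 had a larger and 2 a smaller effect at this threshold. Cdca8 came nearest (0.59 ± 0.17, adjusted p = 0.083), and the effect on Mki67 was larger by 1.29 ± 0.62 (adjusted p = 0.302). Ect2 went the other way by -0.69 ± 0.23 (adjusted p = 0.114), from 0.43 at week 12 to -0.26 at week 14. For Top2a the difference of effects was 0.41, with an interval from -1.15 to 1.96. Without untreated replicate 10 of week 12, 0 members passed (4 larger and 2 smaller at an unadjusted p under 0.05), where 0.00585% of all genes had a larger effect. The difference of effects was then 0.04 ± 0.61 for Top2a (adjusted p = 1), 1.04 ± 0.54 for Mki67 (adjusted p = 0.361), 0.53 ± 0.16 for Cdca8 (adjusted p = 0.0988) and -0.71 for Ect2 (adjusted p = 0.12), by limma. Without pristane-treated replicate 1 of week 14 the count was 1, and without replicate 2 it was 2.

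At weeks 2, 4 and 8 none of the cell cycle genes passed (limma, 0 higher and 0 lower at each), and the median differences were 0.01, 0.04 and 0.01. Of all genes, 0.404% were higher and 0.0292% lower at week 2, 0.246% higher and 0.0234% lower at week 4, and 0.181% higher and 0% lower at week 8. At an unadjusted p under 0.05, 800 of all 17097 genes were higher and 650 lower at week 2. The counts were 641 and 426 at week 4, and 533 and 176 at week 8. Of the members at this threshold, 1 was higher and 4 were lower at week 2. At week 4, 2 members were higher and 0 lower, and at week 8, 0 were higher and 0 lower. The 2 at week 4 were Cdk1 (0.36 ± 0.12, adjusted p = 0.639) and Top2a (0.61 ± 0.23, adjusted p = 0.836). At week 2 the spindle motor Kif11 had the lowest value (-0.49 ± 0.12, adjusted p = 0.119). The 95% interval of the difference in Mki67 ran from -0.40 to 0.42 at week 2, from -0.01 to 0.93 at week 4 and from -0.37 to 0.90 at week 8. Of the 12 macrophage and monocyte markers, 1 was called higher at week 2 and 0 were called at weeks 4 and 8 (limma). At week 4, 10 of them had an unadjusted p under 0.05. Of the 8 neutrophil markers 1, 2 and 2 were called higher at weeks 2, 4 and 8, when no cell cycle gene was. The differences of 2, 7 and 7 of these 8 markers were positive, with medians of -0.0027, 0.26 and 0.46.

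Single kidneys stood out in these early groups. Replicate 5 of the untreated mice at week 2 was the highest of its group in 17 of 44 genes (38.6%, beside 11.1% of all genes), with a mean over the cell cycle genes of 0.11 and a macrophage marker level of 4.65 in a group that ran from 4.40 to 4.71. Replicate 4 of the pristane-treated mice at week 4 had the highest value of its group in 23 of 44 genes (52.3%, beside 12.4% of all genes), with a mean over the cell cycle genes of 0.34 and the highest macrophage marker level of its group, 5.89. Its levels were 6.04 for Mki67 and 5.76 for Top2a, against means of 4.45 and 3.94 in the other 9 kidneys. Replicate 4 of the pristane-treated mice at week 8 was highest in 14 genes (31.8%, beside 9.24%) and had the highest macrophage marker level of its group, 6.42. Replicate 9 of the untreated mice at week 8 was highest in 13 genes (29.5%, beside 6.01%), with a mean over the cell cycle genes of 0.23 and a macrophage marker level of 6.08. The highest macrophage marker level of that group, 6.42, was in replicate 3, whose mean over the cell cycle genes was -0.0064.

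The levels of the genes followed in every group show the same course. The median level of Mki67 in untreated mice was 4.98, 4.34, 4.02, 4.55, 5.14 and 4.55 at weeks 0, 2, 4, 8, 12 and 14, and in pristane-treated mice it was 4.26, 4.58, 5.09, 5.95 and 7.46 from week 2 on. For Top2a the untreated medians lay between 3.47 and 3.92 and the treated medians were 3.80, 3.90, 3.86, 5.15 and 6.46. In both genes the treated medians of weeks 2 to 8 lay within the range of the untreated medians, and those of weeks 12 and 14 above it. Cdk1 had untreated medians between 4.44 and 4.75 and treated medians of 4.65, 4.72, 4.78, 5.34 and 6.33. Pcna had untreated medians from 9.21 to 9.59 and treated medians of 9.48, 9.55, 9.54, 9.88 and 10.43. Mcm5 had a median of 2.24, its lowest value, in every group but the pristane-treated mice of week 12 (2.59) and week 14 (3.35).

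**Figure D5:**
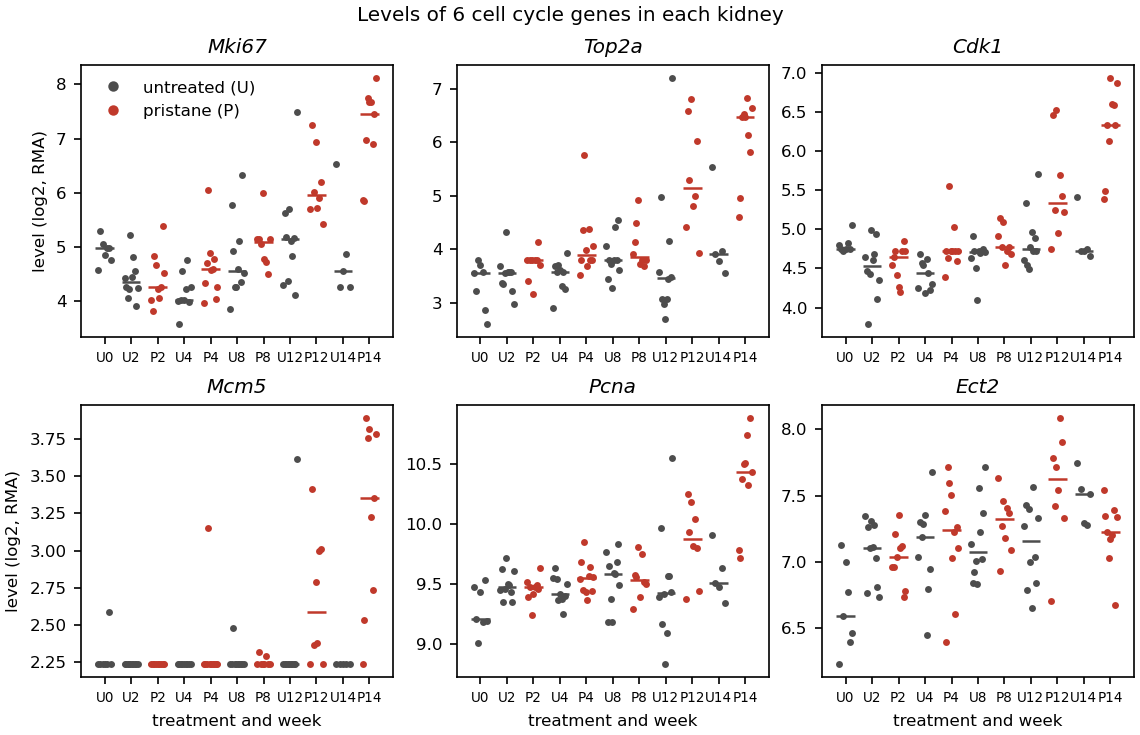
Log2 level (y axis) of Mki67, Top2a, Cdk1, Mcm5, Pcna and Ect2 in each of 95 kidneys by treatment and week (x axis; U untreated, P pristane). Points are kidneys and lines are group medians. Mki67, Top2a and Cdk1 have their highest median in pristane-treated mice of week 14, the highest single value of Top2a is 7.21 in untreated replicate 10 of week 12, Mcm5 lies at 2.24 in most kidneys, and Ect2 has its highest median in pristane-treated mice of week 12.

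In untreated mice between weeks 0 and 14, 2 of the 44 genes were higher and 3 lower by limma, where 11.2% of all genes were higher and 4.91% lower, and the median difference was -0.02 against 0 over all genes. The count of higher members was thus below the share of all genes, and that of lower members near it. The helicase subunit Mcm6 was higher by 1.11 ± 0.21 (2.17-fold, adjusted p = 0.00737) and Ect2 by 0.82 ± 0.16 (1.77-fold, adjusted p = 0.00899). The levels of Ect2 ran from 6.23 to 7.13 at week 0 and were 7.75, 7.55, 7.30, 7.28 and 7.51 at week 14, with no overlap. Cenpe was lower (-0.54 ± 0.13, adjusted p = 0.0202), again with no overlap, and Foxm1, the factor that drives G2 and M phase genes, differed by -0.63 ± 0.17 (adjusted p = 0.0339) and Ccne1 by -0.69 ± 0.21 (adjusted p = 0.0499). The share of all genes without overlap was not counted. The lowest value was that of Kif11 (-0.92 ± 0.29, adjusted p = 0.0622), and Top2a differed by 0.82 ± 0.35 (adjusted p = 0.154). Mki67 differed by -0.03, with an interval from -0.83 to 0.76. Higher levels of Mcm6 and Ect2 were already present at week 2. Mcm6 was 5.82 in replicate 3 of week 0 (mean of the others 5.24) and 6.99 in replicate 2 of week 2 (mean of the others 6.48). Ect2 was 7.13 in replicate 2 of week 0 (others 6.58) and 7.34 in replicate 1 of week 2 (others 7.05). Arrays of week 0 had on average 17.6% of values at the floor, against 18.9% at week 2 and 19.3% at week 14 in untreated mice. The count of 5 was 2 or 3 without untreated replicate 4 of week 0 or untreated replicate 1, 2, 3 or 4 of week 14, namely 3, 3, 2, 2 and 3 in that order. With every array centred on its median, which shifted the median over all genes by 0.11, 8 members were higher and 4 lower. Of 12 macrophage and monocyte markers 4 were higher and 1 was lower in the same comparison, and their part in the result was not tested. The untreated mice of week 14 also serve as controls of the pristane-treated mice, so that the values of Mcm6 and Ect2 here and there are not independent.

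A slope over all untreated weeks called 1 member, Ect2, with a difference of 0.46 ± 0.13 over 14 weeks (limma adjusted p = 0.0154), where 4.13% of all genes were higher and 7.37% lower. Without untreated replicate 10 of week 12, where 3.88% of all genes were higher, Ect2 was again the member called (0.45 ± 0.13, adjusted p = 0.0195). With only kidneys whose adrenal marker level was at or below 5, 0 members passed, and 3 were higher and 1 lower at an unadjusted p under 0.05.

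Within pristane-treated mice, 32 of the 44 genes were higher at week 14 than at week 2 and 0 were lower by limma, where 14.8% of all genes were higher and 20.3% lower. The median difference was 0.56 against 0 over all genes. Mki67 rose by 2.72 ± 0.31 (6.60-fold, adjusted p = 1.1e-05), Birc5 by 2.44 ± 0.29, Prc1 by 2.42 ± 0.30, Top2a by 2.34 ± 0.27, Tpx2 by 1.77 ± 0.25 and Cdk1 by 1.73 ± 0.20. In 10 genes all 9 kidneys of week 14 lay above all 9 of week 2, among them Pcna, Mad2l1, Kif22 and Cdca3 beside these 6. How many of all genes separated in this way was not counted. The weaker calls were in part genes near their floor, such as Cdc6 (0.36) and Aurkb (0.41), and 13 of the 32 exceeded 2-fold. All 4 spindle checkpoint genes, all 5 centromere and passenger genes and 8 of 9 replication genes passed, but 2 of 6 mitotic kinases and Foxm1. The 12 genes that did not pass include Plk1, Aurka, Nek2, Foxm1 and Kif4, with differences from 0.06 to 0.14, and Tyms at -0.18. Of 12 macrophage and monocyte markers 11 were higher and of 10 proximal tubule markers 8 were lower. The same mice differed in adrenal markers, of which 8 of 10 were lower at week 14, and only 1 kidney of week 2 lay at or below a level of 5, so that the part of adrenal tissue in this comparison was not tested. The week 14 mice of this comparison are those of the comparison with untreated mice, and the differences of both comparisons are therefore not independent.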

How the data were processed

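RNA of 95 kidneys was extracted with Trizol, labelled with the NuGEN Ovation Biotin system and hybridised to Affymetrix HT MG-430 PM arrays. The authors deposited log2 values made by robust multi-array averaging (RMA), per the methods in R with Bioconductor, and the submitters' processing notes also name Partek. The table holds 45141 probe sets, of which 104 are controls, 29449 had a gene in the platform annotation and 551 had several symbols. No array duplicated another (highest correlation 0.998). Depth does not apply to arrays, and the number of mice limits the precision.

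Groups followed the labelled treatment and week. The 45037 other probe sets were fitted together in each comparison with limma 3.58.1 in R 4.3.3 (lmFit and eBayes, Benjamini-Hochberg adjustment, call at an adjusted p under 0.05), and the values of the members were read from these fits, given ± SE. The interaction of week and treatment and a slope over untreated weeks were fitted likewise. The fits were tested on simulated data. The members, lists and tests were chosen with earlier results of these data known. All members are named by role; levels in each group are given for Mki67, Top2a, Cdk1, Mcm5 and Pcna, fit values for these and for up to 6 called members with the largest rise and 6 with the largest fall, and up to 3 called genes are named for each other list, with exceptions stated. Alternatives were another normalization, filter, threshold, fit or probe set rule, a replicate block, and fits without 1 mouse. Promoter sequences are from RefSeq.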

Additional observations from a re-analysis of the deposited data

Results flagged for a closer look

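In 21 of 65 groups of values tested, where chance gives about 1 in 20, the highest or lowest kidney stood apart from the others of its group. The gaps were measured on the mean over the 44 cell cycle genes and on the levels of Mki67, Top2a, Cdk1, Mcm5 and Pcna, which share the same kidneys. In Pcna no kidney stood apart in any group. Of the 21, 6 are groups of Mcm5 values that mostly lie at or near the lowest value of that gene, and the 1 in 20 does not apply to them. Replicate 10 of the untreated mice at week 12 was the highest of its group in the mean over the members (1.05, next 0.18), Mki67 (7.50), Top2a (7.21) and Mcm5 (3.62). Replicate 1 of the untreated mice at week 14 was the highest in the mean (0.38), Mki67 (6.53), Top2a (5.54) and Cdk1 (5.41). Replicate 4 of the pristane-treated mice at week 4 was the highest in the mean (0.34), Mki67 (6.04), Top2a (5.76) and Mcm5 (3.16). Replicate 4 of the pristane-treated mice at week 8 was the highest in the mean (0.22) and in Mki67 (5.99).

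The other kidneys stood apart in 1 gene each. Top2a was highest in replicate 5 of the untreated mice at week 2 (4.32). Cdk1 was highest in replicate 7 of the untreated mice at week 0 (5.06) and lowest in replicate 5 of the untreated mice at week 8 (4.10). Mcm5 was highest in untreated replicate 6 of week 0 (2.59) and untreated replicate 3 of week 8 (2.48). In 2 groups whose Mcm5 values all lie at the lowest value, the kidney that stood apart differed from the others by about 0.001 or less, with 2.24 in pristane-treated replicate 3 of week 2 and 2.24 in untreated replicate 2 of week 14.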

How the results depend on the processing

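Counts of called members moved by over 1.5 times in 43 refits and by less in 255. Of single gene values, 1244 kept direction and call, 195 kept direction and lost the call, and 0 reversed. These values are pooled over all comparisons, of which week 14 against week 2 in pristane-treated mice had the most called members, 32. At week 14 the count of 15 became 29 with all groups in a single fit, 25 with weights per group, 23 with the probe sets of each gene averaged, 0 at an adjusted p under 0.01 (218 of all genes) and 0 without kidneys of high adrenal level, an alternative chosen after seeing the data. Without 1 mouse it ranged from 3 to 27, and Cdk1, Mad2l1 and Mcm4 were called in all 14 such fits. Mcm5, Ccna2, Tpx2 and Prc1 lost the call in 12, 11, 10 and 9 of these 14 fits, and the remaining called genes in 1 to 8. At week 12 the count of 0 became 10 in the single fit and ranged from 0 to 3 without 1 mouse. At week 2 it became 1 with a filter at the 40th percentile. The difference of effects became 1 with the filter, 9 in the single fit (8 larger and 1 smaller) and 1 with weights, and ranged from 0 to 2. The untreated change from week 0 to 14, with 5, became 12 with median centring, 9 in the single fit, 2 at the stricter threshold of 0.01, 1 when a fold over 2 was asked as well and 3 without kidneys of high adrenal level, and ranged from 2 to 6. The slope, with 1, became 3 with quantile normalization, 2 in the single fit, 5 with weights, 0 at an adjusted p below 0.01, and 0 when a fold over 2 was asked as well, as it was without kidneys of high adrenal level. Week 14 against week 2 in pristane-treated mice, with 32, became 13 with a fold over 2. The cause of these changes was not tested.

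Replicate numbers were not taken to pair the mice. At weeks 2, 4, 8, 12 and 14, 5 of 9, 3 of 9, 3 of 8, 1 of 8 and 2 of 5 pairs of the same number correlated above 0.1. Mice of different numbers were not correlated, so that these counts cannot decide whether the numbers pair mice. With the replicate block the count was 0 at week 14 (10 higher and 1 lower at an unadjusted p under 0.05, limma), 1 at week 12 and 2 for the untreated change. The adrenal alternative was not run for week 2 or for week 14 against week 2, where 1 pristane-treated kidney of week 2 remained. Signal near the floor limits Cdc6, Mcm5, Aurka, Aurkb, Cenpf, Plk1 and Ccne2.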
